A study of Rattus norvegicus with 6 samples.

Results

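The nuclei described here are the cycling nuclei of the rat ileum, that is, nuclei that held unique molecular identifiers (UMIs, 1 per captured transcript) of at least 3 different genes of the 9 mitotic genes Top2a, Mki67, Cenpe, Cenpf, Kif11, Hjurp, Ncaph, Ska1 and Pttg1. They also passed the quality thresholds of the study, namely at least 1200 UMIs, at least 500 genes and at most 5% mitochondrial UMIs, and held UMIs of fewer than 2 of the 6 genes Ptprc, Pax5, Skap1, Bank1, Myh11 and Col3a1, which mark leukocytes and stroma. Of 90461 barcodes 40970 passed the thresholds, and 4528 of these were cycling nuclei, 3899 in the control group (CON) and 629 in the group with severe acute pancreatitis (SAP). Both groups were wild type male Sprague-Dawley rats, 6 weeks old when obtained and then acclimatized before surgery. They were killed 24 h after surgery and fasted after it, with 3 rats and 3 libraries per group. In SAP rats 3% sodium taurocholate was infused backwards into the pancreatic duct at 0.1 mL per 100 g, and CON rats had a sham laparotomy without infusion. A bile salt given into the duct models 1 chemical cause of pancreatitis, and the ileum was read at 1 time only.

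The ileal epithelium renews itself from crypts. Stem cells at the crypt base give rise to transit-amplifying cells, which divide rapidly in the lower crypt before their daughters leave the cycle and differentiate into absorptive or secretory cells on the way to the villus. Genes needed for chromosome condensation, kinetochore assembly, the spindle and cytokinesis are transcribed mainly in late S, G2 and M phase, so a nucleus that carries several such transcripts has in most cases entered the cell cycle. Many of these genes are kept silent in resting cells by the DREAM complex and are switched on by the MuvB core together with B-Myb and FoxM1, through promoter elements named CHR (cell cycle genes homology region) and CCAAT, the latter bound by NF-Y.

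Promoter sequence was read for the 9 marker genes, which do not all hold these elements. The table of RefSeq promoters (build GRCr8, from 250 bases before to 50 bases after each annotated start) held all 9, and 3 of them are printed because both elements lie close together there. Capitals mark CCAAT and the CHR letters TTTGAA or TTCGAA on either strand, so that CCAAT on the opposite strand reads ATTGG and TTTGAA reads TTCAAA, and the elements may overlap. The window is the last 150 bases before the start, read 5′ to 3′ on the strand of the gene, which is the minus strand in each case. The first is Top2a at chr10:84473094-84473243, the second Mki67 at chr1:199952594-199952743 and the last Pttg1 at chr10:28406327-28406476.
Top2a: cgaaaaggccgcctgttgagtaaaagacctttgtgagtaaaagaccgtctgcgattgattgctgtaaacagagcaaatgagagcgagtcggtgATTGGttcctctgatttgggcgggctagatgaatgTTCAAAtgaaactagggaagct
Mki67: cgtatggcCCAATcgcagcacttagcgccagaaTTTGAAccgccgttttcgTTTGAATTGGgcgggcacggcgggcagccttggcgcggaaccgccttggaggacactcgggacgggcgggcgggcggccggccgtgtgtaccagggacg
Pttg1: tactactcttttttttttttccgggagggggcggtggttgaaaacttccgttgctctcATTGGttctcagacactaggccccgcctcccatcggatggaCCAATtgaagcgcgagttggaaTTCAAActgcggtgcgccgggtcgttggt

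In the full window of 300 bases, CCAAT was found in 7 of the 9 marker promoters, the CHR letters in 6 and both in 5. The promoter of Ncaph held neither. Among all 27457 promoters in the table the shares were 37.7% for CCAAT, 19.5% for the CHR letters and 7.83% for both. Of 83 other mitotic genes in the lists used below 72 had a promoter in the table, and 62.5% of these held CCAAT, 72.2% the CHR letters and 51.4% both. The 52 matched S phase promoters of 64 had CCAAT in 55.8%, the CHR letters in 23.1% and both in 9.62%. The 16 matched promoters of 24 crypt genes held both elements in 0 cases. A match of letters describes a window and shows no binding.

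Transcripts of epithelia were found in most of the cycling nuclei. Epcam, a surface adhesion protein of epithelia, was detected in 77.7% to 87.8% of the cycling nuclei of a library and Cdh1, the gene of E-cadherin, in 75.5% to 90.2%. Epcam was also found in 70.9% to 89.2% of all passing nuclei, and it stood at 646 to 930 CPM in the nuclei that the excluded genes removed, so its detection does not set epithelial nuclei apart here. Between 52.9% and 75.3% of them met a crypt rule (UMIs of at least 2 of the 6 genes Olfm4, Slc12a2, Lgr5, Ascl2, Rgmb and Ephb2), and Slc12a2, a sodium, potassium and chloride cotransporter of crypt cells, was found in 56.4% to 76.5%. Muc2 together with Fcgbp or Clca1, a combination of goblet cell genes, was found in 43.9% to 62.3% of the cycling nuclei, and in SAP replicate 3 this share (62.3%) was above that of the crypt rule (52.9%). The label as transit-amplifying was thus not settled for each nucleus by these genes, and no marker of the lists separates transit-amplifying cells from dividing stem cells. Lgr5 was detected in 11.8% to 19.5%. The choice was made on UMIs of mitotic genes, which nuclei in S phase may also carry, so the nuclei are called cycling and not mitotic.

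Transcripts of other cells were present as well. Defa24, an alpha-defensin that Paneth cells secrete, was detected in 75.6% to 100% of cycling nuclei, and Muc2, the gel-forming mucin of goblet cells, in 46.3% to 65.9%. The part of RNA from outside the nuclei in these values was not tested. B cell transcripts were uneven, since Ebf1, a B cell transcription factor, stood at 192 CPM (UMIs of a gene scaled to a common library total) in SAP replicate 3 and at 10.2 to 58.9 CPM in the other 5 libraries. In that library 56.2% of the cycling nuclei held UMIs of 1 of the 6 excluded genes, against 26.9% to 43.4% elsewhere, and the exclusion removed 541 nuclei with 3 or more markers, more than the 454 that it kept. In the remaining libraries the exclusion removed between 7 and 436 such nuclei.

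The cycling nuclei rested on unequal depth. The passing nuclei of a library held 5549260 to 28771508 UMIs in all, with a median of 1516 to 1890 UMIs per nucleus. The cycling nuclei were deeper than the other nuclei of their own library in all 6 libraries, with medians of 1778 to 2880 against 1512 to 1884 UMIs. Their sums came to 7156614, 2504468 and 2562586 UMIs in the CON replicates 1 to 3. In the SAP replicates 1 to 3 they came to 205064, 364869 and 1450929 UMIs. Expression in 2 of the SAP rats thus rests on 93 and 82 nuclei. In these, SAP replicates 1 and 2, 3 counts make 14.6 and 8.22 CPM, so values near or below these rest on few UMIs. SAP replicate 2 stood apart, with the highest median depth and with 22.0% of its cycling nuclei above the 95th percentile of UMIs in its library, where the others had 7.07% to 17.2%. When each nucleus was thinned at random to 1200 UMIs, 30.5% of its cycling nuclei still met the rule, against 40.3% to 58.1% in the other libraries. The median mitochondrial share of cycling nuclei was 0.588%, 0.112% and 0.157% in the CON replicates and 1.44%, 1.03% and 0.277% in the SAP replicates. Barcode names recur between libraries (195 to 746 per pair of libraries), but they are running numbers and carry no sequence, so that shared cells cannot be told from them.

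The first question was whether the share of cycling nuclei differed between SAP and CON. In the CON replicates 19.6%, 19.1% and 10.6% of passing nuclei were cycling, and in the SAP replicates 2.92%, 1.37% and 5.75%. The groups did not overlap, and CON replicate 3 lay nearest to the SAP libraries, of which replicate 3 was the highest. The means were 16.4% ± 5.03 in CON and 3.35% ± 2.22 in SAP (SD, n = 3 each), a difference of −13.1 percentage points and a ratio of 4.91. The exact two-sided permutation test gave p = 0.1, which is the smallest value that 3 against 3 libraries allow. Exact binomial intervals (95%, counting error only) were narrower than the gap between the groups, 9.97% to 11.3% in CON replicate 3 and 5.25% to 6.29% in SAP replicate 3. Divided by the nuclei with fewer than 2 excluded genes only, the shares were 22.2%, 20.4% and 14.1% in CON and 3.20%, 1.46% and 11.04% in SAP, so that SAP replicate 3 came nearer to CON replicate 3 without overlap. A share of nuclei can fall because cycling nuclei were fewer or because other nuclei were more numerous, and these cannot be told apart here. Likewise the sums below do not separate fewer cells from less RNA per cell. A lower unthinned share in SAP was also found among nuclei with enterocyte genes, as given below. The part of background in the ratio of 4.91 was not tested.

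Because the rule counts genes with a UMI, it was repeated after each passing nucleus had been thinned to 1200 UMIs, which left out no nucleus. Cycling nuclei then made up 8.54%, 10.9% and 5.62% of the CON libraries and 1.69%, 0.419% and 3.18% of the SAP libraries. The means were 8.36% ± 2.65 and 1.76% ± 1.38 (SD, n = 3 each, ratio 4.74, exact permutation p = 0.1), and the groups again did not overlap. Within the libraries whose tables list barcodes below 1000 UMIs (CON replicate 2 and SAP replicate 1) the unthinned shares were 19.1% and 2.92%, and in the other 4 libraries the means were 15.1% and 3.56%.

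Background was read in cells that should not divide. Among nuclei with at least 5 UMIs of Myh11, the heavy chain of smooth muscle myosin, 3 or more of the 9 markers were found after thinning in 1.35%, 3.95% and 0.733% in CON and in 0 of 25, 0 of 8 and 0 of 90 nuclei in SAP. The exact 95% intervals of these counts reached 2.62% to 11.1% in CON and 4.02% to 36.9% in SAP, so the depth of this check was small. Without thinning the share of such nuclei was 6.90% to 36.2% in CON, highest in CON replicate 1 where these nuclei had a median of 4149 UMIs, and 2.78% to 7.41% in SAP. Among nuclei with UMIs of at least 3 of 8 enterocyte genes, 0.585% to 1.81% were cycling in CON and 0.0327% to 2.17% in SAP after thinning. The thinned share of all passing nuclei was above the enterocyte share of its own library in every library. In SAP replicate 3 these values were 3.18% and 2.17%, the closest pair as a ratio. In SAP replicate 2 they were 0.419% and 0.0327%, the closest pair in percentage points. Without thinning 10.2% to 15.9% of enterocyte-rule nuclei met the cycling rule in CON and 1.19% to 8.07% in SAP. The means were 12.3% and 3.69%, without overlap (exact permutation p = 0.1), so this background class was lower in SAP too. After thinning its groups overlapped, with means of 1.39% and 0.902% (exact permutation p = 0.6). The part of background in the unthinned difference among all passing nuclei was not tested. In SAP replicate 3 the unthinned enterocyte share of 8.07% was above the 5.75% of all passing nuclei. In CON replicate 3 it was 10.2%, just under the 10.6% of all passing nuclei. The unthinned Myh11 share was above that of all passing nuclei in CON replicate 1 (36.2% against 19.6%). It was also above it in SAP replicate 2 (7.41%, 2 of 27 nuclei, against 1.37%) and in SAP replicate 3 (6.12% against 5.75%). In the other libraries it was below.

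The comparison was then confined to nuclei that met the crypt rule, called crypt nuclei below. Whether the rule picks nuclei of the crypt alone was not tested. Nuclei that met the crypt rule after thinning were themselves a smaller share in SAP, with 37.3%, 28.4% and 22.5% of passing nuclei in CON and 18.8%, 6.02% and 13.9% in SAP. Of these crypt nuclei 11.8%, 15.3% and 11.1% were cycling in CON and 3.99%, 2.23% and 6.54% in SAP. The means were 12.7% ± 2.28 and 4.25% ± 2.17 (SD, n = 3 each), a ratio of 2.99, with no overlap and an exact permutation p of 0.1. In SAP replicate 2 the value rests on 8 of 359 nuclei, with an exact 95% interval of 0.967% to 4.34%. Thus the share of cycling nuclei was lower in all 3 SAP libraries than in any CON library both among all nuclei and among crypt nuclei.

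**Figure D1:**
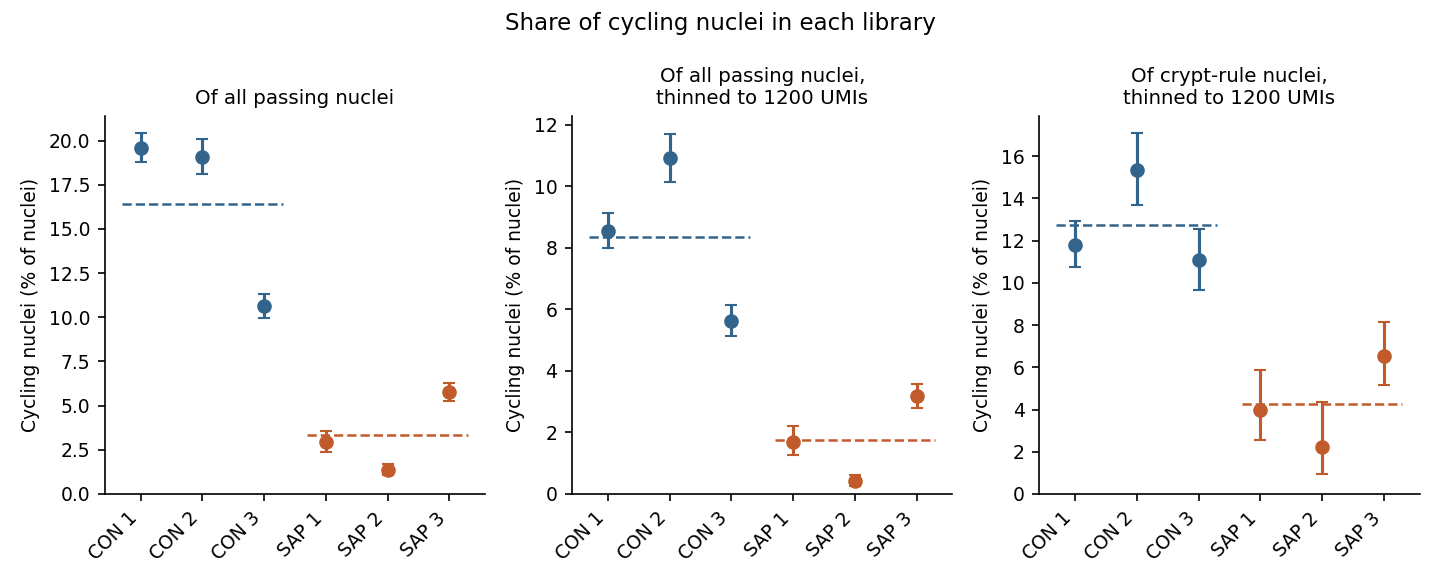
Cycling nuclei as a percentage of passing nuclei (left), of passing nuclei thinned to 1200 UMIs (middle) and of thinned crypt-rule nuclei (right), 1 point per library with its exact 95% binomial interval and a dashed line at the group mean (CON blue, SAP orange). In each panel the 3 SAP libraries lie below the 3 CON libraries.

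The rule has a threshold, and the nuclei on its sides were counted without a test. Exactly 3 markers were held by 2193 nuclei, 4.44% to 10.0% of passing nuclei in CON and 0.871% to 2.91% in SAP. Just outside it, 3634 nuclei held 2 markers, 7.64% to 15.4% in CON and 2.06% to 5.22% in SAP. The nuclei on both sides were alike in depth, with medians of 1933 and 1810.5 UMIs, and 60.9% and 56.5% of them met the crypt rule.

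The other mitotic transcripts were summed by the number of markers. In CON the 83 mitotic genes outside the rule summed to a mean of 7249 CPM in nuclei with 3 markers, 8295 CPM with 4 and 8632 CPM with 5 or more. In SAP the same sums were 5633, 6160 and 7132 CPM. The 64 S phase genes did not follow, at 3762, 3734 and 3442 CPM in CON and 3192, 2905 and 2619 CPM in SAP. These are means over 3 libraries, and within libraries the order did not always hold. In CON replicate 1 the mitotic sums were 5088, 6480 and 5668 CPM, in SAP replicate 1 they were 6531, 6437 and 8984 CPM and in SAP replicate 3 they were 7255, 8614 and 8431 CPM, while the other 3 libraries had higher sums with more markers. The last class holds 111 nuclei in all of SAP.

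Levels of the 9 markers are given as a description, since they chose the nuclei. Values are CPM after trimmed-mean (TMM) scaling. Top2a, the topoisomerase that untangles sister DNA, stood at 372, 504 and 397 in CON and at 377, 224 and 436 in SAP. Mki67, which coats mitotic chromosomes, was at 267, 160 and 182 in CON and at 261, 119 and 202 in SAP. The groups overlapped for both of these genes. Cenpf, a protein of the outer kinetochore and nuclear matrix, was at 290, 257 and 286 in CON against 256, 156 and 168 in SAP. Pttg1, the securin that restrains separase, was at 56.3, 88.0 and 64.5 in CON and at 50.2, 25.5 and 27.0 in SAP. In these genes no SAP library reached a CON library, though for Cenpf SAP replicate 1 lay just under the lowest CON value. Cenpe, a kinetochore motor, gave the same picture with 184 to 227 in CON and 99.0 to 176 in SAP. SAP replicate 2 had the lowest value of the 6 libraries for Top2a, Mki67, Cenpe, Cenpf, Kif11, Hjurp, Ncaph, Ska1 and Pttg1 alike.

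To see what else these nuclei transcribed, they were set against crypt-rule nuclei of the same libraries with none of the 9 markers (4374 nuclei). The cycling nuclei were chosen on genes that are transcribed together with other mitotic genes, so genes of that program were bound to be higher, and the fold changes below are a description and no test. In the edgeR quasi-likelihood fit with library as a block, 793 of 12682 genes lay past the threshold (adjusted p under 0.05 and a log2 fold change of at least 0.5) as higher in cycling nuclei, 6.25% of genes, and 1235 as lower, 9.74%. Level values of this comparison are means over 6 libraries of TMM-scaled CPM with their SD.

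Genes of the kinetochore, the protein plate by which chromosomes hold to microtubules, were higher throughout. Past the threshold were 20 of 21, with a median log2 fold change of 1.77 where the median over all genes was 0.00. Knl1, the scaffold that recruits the checkpoint proteins, stood at 148 ± 46.9 CPM in cycling nuclei and 34.0 ± 20.5 in the crypt nuclei without markers (log2 fold change 2.15 ± 0.18 SE, higher in 6 of 6 libraries). Bub1b, a checkpoint protein that delays anaphase, stood at 122 ± 40.5 against 24.7 ± 16.1 CPM (2.26 ± 0.16). Bub1, the kinase of the same checkpoint, was among the 10 genes with the largest difference, at 66.3 ± 27.5 against 11.5 ± 6.92 CPM (2.57 ± 0.17). Cenpp, of the inner kinetochore, was at 201 ± 59.5 against 66.4 ± 43.8 CPM (1.56 ± 0.25).

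Spindle genes and motors were past the threshold in 23 of 23 cases, with a median of 2.18. Nusap1, which bundles spindle microtubules, showed the largest value of the list at 2.70 ± 0.21 (170 ± 63.0 against 23.8 ± 15.7 CPM). Tpx2, which activates the kinase Aurora A at the spindle, followed at 194 ± 76.7 against 38.1 ± 25.2 CPM (2.39 ± 0.19). Ckap5, a microtubule polymerase that is used outside mitosis too, had the smallest value of the list, 1.48 ± 0.09, with 477 ± 109 against 173 ± 50.9 CPM. Condensin genes, which compact chromosomes, were higher in 7 of 7 cases with a median of 1.42, from Ncaph2 at 0.65 ± 0.14 to Ncapg at 2.18. Ncaph2 belongs to condensin II, which is in the nucleus through the whole cycle.

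Mitotic cyclins, kinases and their regulators were past the threshold in 24 of 24 cases (median 1.95). Plk1, the Polo kinase of mitotic entry, stood at 213 ± 98.4 against 37.5 ± 23.9 CPM (2.47 ± 0.12), the largest of the list. Birc5, a subunit of the chromosomal passenger complex, was at 93.2 ± 25.7 against 18.2 ± 10.0 CPM (2.28 ± 0.15), and Cdc25c, a phosphatase that activates Cdk1, at 106 ± 31.7 against 32.3 ± 9.48 CPM (1.70 ± 0.12). Cytokinesis genes were higher in 8 of 8 cases with a median of 2.43. Ect2, which activates RhoA at the cleavage site, was at 321 ± 89.1 against 58.8 ± 37.8 CPM (2.44 ± 0.24), and Cep55, of the midbody, at 67.8 ± 20.3 against 11.6 ± 8.21 CPM (2.56 ± 0.18). Each gene named in this paragraph was higher in 6 of 6 libraries, as were 21 of the 24 cyclins and kinases and 8 of 8 cytokinesis genes.

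Among transcription factors of the cycle 5 of 9 were past the threshold as higher, against 6.25% of all genes. Foxm1, named here for its known role at CHR promoters and outside the rule for named genes, stood at 51.8 ± 10.0 against 11.8 ± 4.29 CPM (2.11 ± 0.17). E2f1, E2f2 and E2f3, which act at the start of S phase, had log2 fold changes of −0.05, 0.17 and 0.04 and were not past it. The S phase list split in the same way, with 27 of 64 genes past the threshold and a median of 0.35. Fancd2, of the Fanconi repair pathway, had 1.86 ± 0.12 (166 ± 47.3 against 44.5 ± 20.1 CPM), and Rad51b, a recombination gene, 1.23 ± 0.10. Prim1, the primase subunit, had 0.57 ± 0.11, whereas Cdc6 and Mcm6, which license origins in G1 and of which Mcm6 was named after its value was seen, had 0.09 ± 0.20 and −0.11 ± 0.15. Of the 64 genes, 10 had a value below 0 and none of these was past the threshold.

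Other genes outside the lists were among the 10 of largest difference. Ankle1, a nuclease that cuts chromatin bridges, had 2.65 ± 0.18 (239 ± 94.0 against 36.7 ± 26.0 CPM) and Pif1, a DNA helicase, 2.65 ± 0.25. Oip5, a factor that loads the centromere histone, had 2.75 ± 0.26 at 37.1 ± 13.3 against 4.67 ± 3.40 CPM. Cip2a, an inhibitor of phosphatase PP2A, had 2.64 ± 0.30.

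Genes of cycle arrest and of differentiation lay on the other side. Over all genes 9.74% lay past the threshold as lower and 6.25% as higher. Of 19 tested p53 targets and inhibitors of cyclin-dependent kinases, 8 were past the threshold as lower and 1 as higher. Btg2, an antiproliferative gene, stood at 84.1 ± 46.5 against 149 ± 33.9 CPM (−1.04 ± 0.27), and Cdkn2b, the inhibitor p15, at 80.6 ± 69.8 against 108 ± 65.3 CPM (−0.58 ± 0.10). The 1 that was higher was Rbl1, the pocket protein p107, at 162 ± 32.4 against 93.9 ± 23.3 CPM (0.79 ± 0.09). Absorptive genes were past it as lower in 14 of 20 cases (median −0.93), for example Apob, the chylomicron protein, at −0.94 ± 0.12. Secretory genes were so in 6 of 20 cases (median −0.60).

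Furthest below 0 were Snhg11 (−2.80), Rimklb (−2.65) and LOC120100960 (−2.64), and receptors were also among the 10 genes of largest difference. The nuclei without markers were chosen on crypt genes and the cycling nuclei were not. Gfra4, a receptor of the GDNF family, stood at 19.0 ± 8.47 CPM in cycling nuclei and 96.3 ± 47.9 CPM in the others (−2.62 ± 0.39), and Gpr158, an orphan receptor, at 8.58 ± 3.55 against 39.7 ± 15.9 CPM (−2.27 ± 0.20). Of 20 genes of Wnt, Notch and growth factor signalling Lef1, a Wnt effector that lymphocytes also express, was past the threshold as lower, and Notch1 and Jag1, a Notch receptor and its ligand, as higher, both named after their values were seen. Notch1 stood at 141 ± 23.2 against 100.0 ± 25.9 CPM (0.52 ± 0.09). Over all genes 9.74% lay past the threshold as lower and 6.25% as higher.

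**Figure D2:**
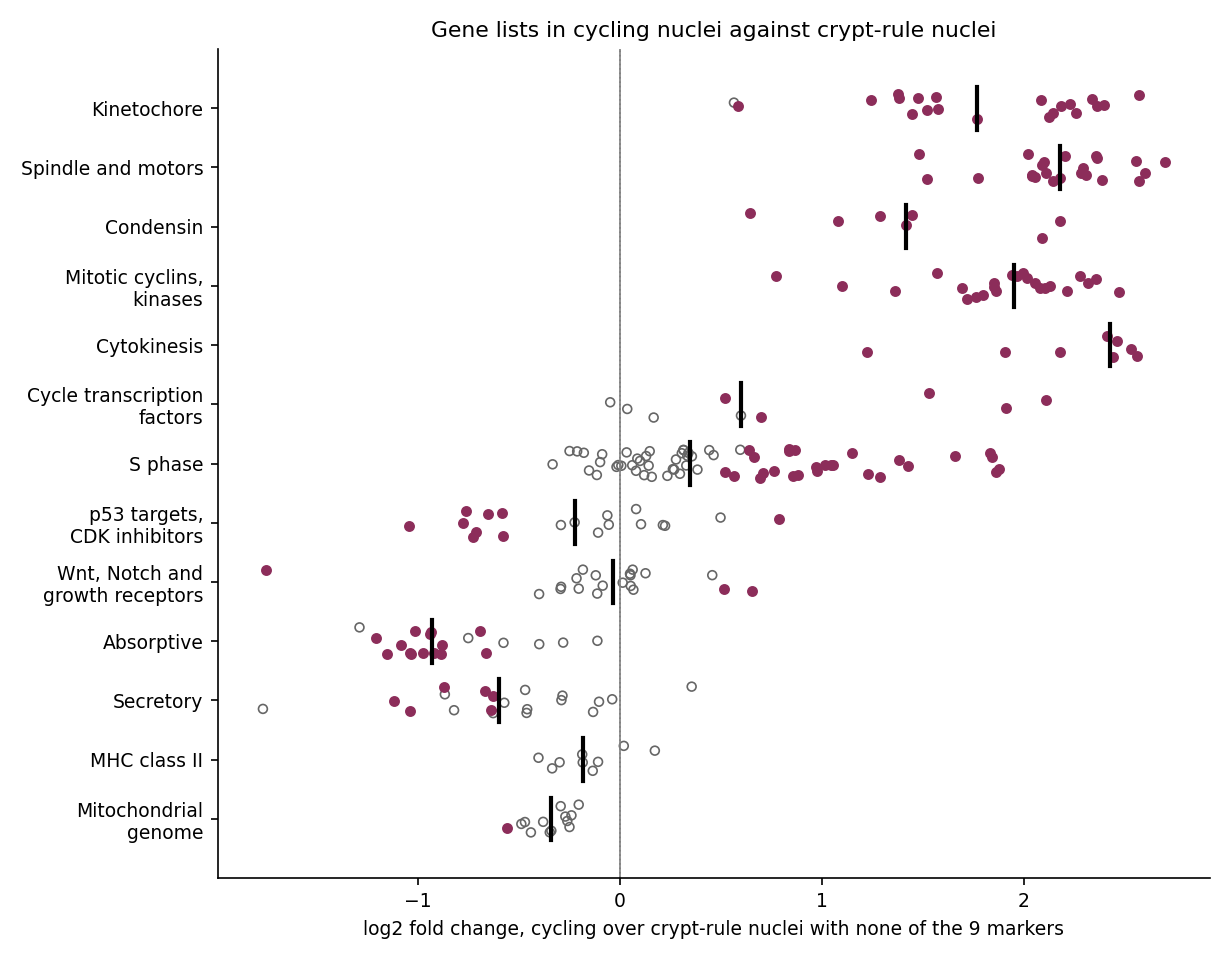
Log2 fold change of each gene in cycling nuclei over crypt-rule nuclei with none of the 9 markers, by list, with the list median as a black bar. Filled points are past the threshold, and the kinetochore, spindle, condensin, cyclin and cytokinesis lists lie wholly above 0 while 20 of 20 absorptive genes lie below it.

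The summed level of the mitotic genes varied between libraries in both classes of nuclei. The 83 mitotic genes outside the rule summed to 5632, 9223 and 8903 CPM in the cycling nuclei of the CON replicates and to 6925, 3311 and 7997 CPM in those of the SAP replicates. In crypt nuclei without markers the same genes summed to 1815, 3189 and 1679 CPM in CON and to 1176, 758 and 1962 CPM in SAP. SAP replicate 2 was lowest in both classes, and CON replicate 1 was the lowest CON library among cycling nuclei. Antimicrobial transcripts took up 82717 CPM of the cycling nuclei of CON replicate 1 and 12717 to 40831 CPM in the other libraries. Their part in the mitotic sum of CON replicate 1 was not tested.

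**Figure D3:**
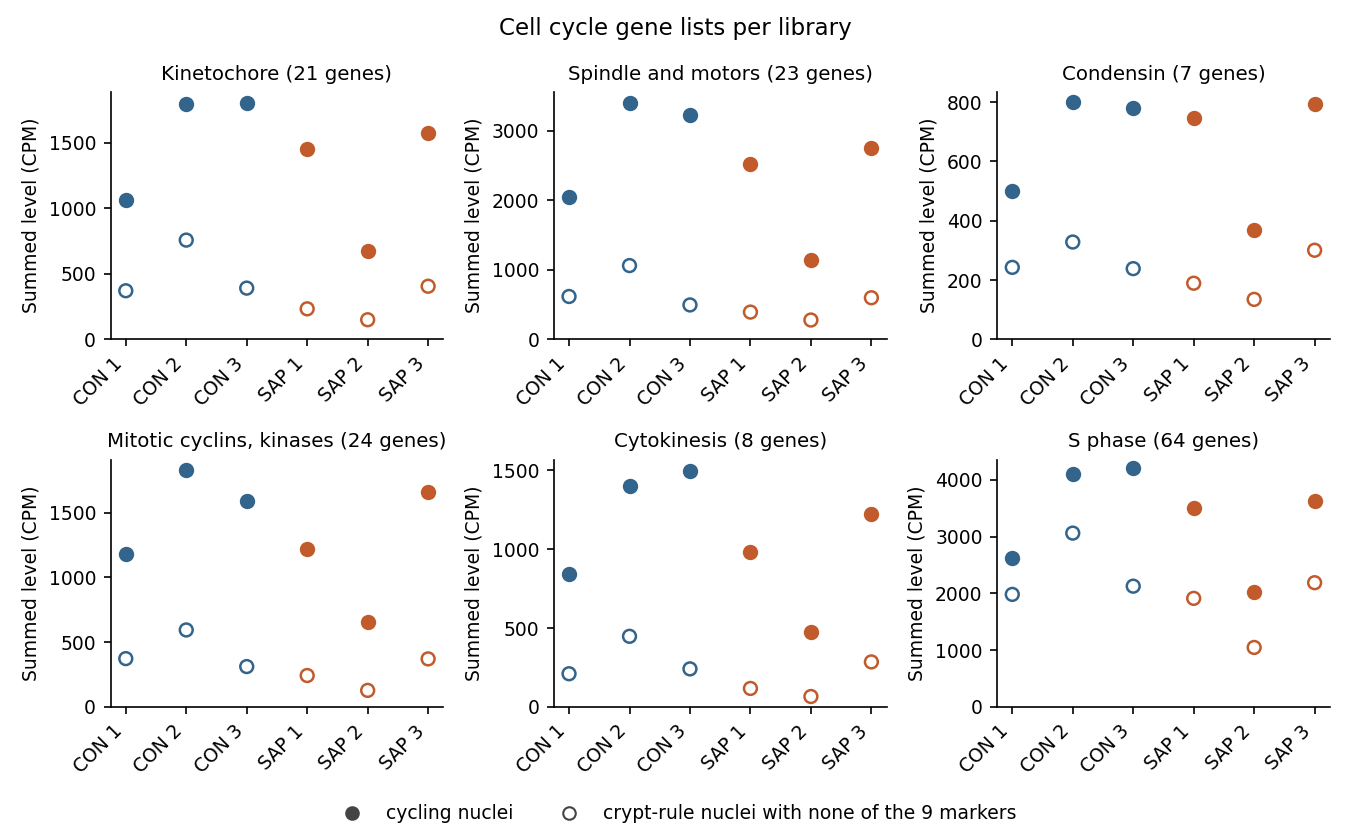
Summed CPM of 5 mitotic lists and of the S phase list in each library, with filled points for cycling nuclei and open points for crypt-rule nuclei with none of the 9 markers (CON blue, SAP orange). Filled points lie above open points in every library, and SAP replicate 2 is lowest in each panel.

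The second question was whether the cycling nuclei of SAP rats transcribed other genes than those of CON rats. On UMIs summed per library, edgeR tested 12274 genes and called 1 as lower in SAP (0.00815% of genes) and 0 as higher (0.00%), with 788 genes at an unadjusted p under 0.05 (6.42%). DESeq2 called 42 genes as higher and 11 as lower. With the replicate number as a block edgeR called 10 genes, 5 in each direction, and 9 of these 10 were among the 53 of DESeq2 (90.0% of the first list and 16.98% of the second). Between the groups 12.7% of all genes did not overlap, 7.43% being lower and 5.30% higher in SAP.

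The gene called was St8sia6, a sialyltransferase that adds alpha-2,8-linked sialic acid to glycoproteins. It stood at 185, 277 and 253 CPM in CON and at 0, 0 and 7.55 CPM in SAP after TMM scaling. The groups were far apart, and 12 UMIs in SAP replicate 3 were all that the 3 SAP libraries held, against 1047, 726 and 694 UMIs in the CON libraries. The log2 fold change was −5.55 ± 0.52 SE (edgeR quasi-likelihood, adjusted p = 0.0112). With 0 of 205064 and 0 of 364869 UMIs, a floor of 3 counts per library allows up to 14.6 and 8.22 unscaled CPM in SAP replicates 1 and 2, so that the level was at least 16.1-fold and at least 28.7-fold lower there than the CON mean of 236 ± 78.0. Leaving out SAP replicate 1 ended the call (adjusted p = 0.154), as did a term for the libraries that list barcodes below 1000 UMIs (adjusted p = 0.0859), although the log2 fold change stayed at −5.41 and −5.52. Without SAP replicate 3 the fitted value was −12.11, since the remaining SAP libraries hold no UMI of the gene and the fit then has no lower bound. The gene was as low in crypt nuclei without markers, where it was also the 1 gene called of 11340 (0.00882%), with 175, 304 and 284 unscaled CPM in CON and 3.55, 2.62 and 8.05 in SAP (log2 fold change −5.76 ± 0.34, edgeR adjusted p = 0.00075).

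Genes of the mitotic lists had fold changes mostly below 0 in SAP, but edgeR called none of them, or 1 spindle gene without the filter on low counts. Of 21 kinetochore genes 19 had a log2 fold change below 0 (median −0.38), of 23 spindle genes 21 (−0.48), of 7 condensin genes 5 (−0.34), of 24 mitotic cyclins and kinases 21 (−0.38) and of 8 cytokinesis genes 8 (−0.46), where the median over all genes tested was −0.02. Without SAP replicate 2, which had the lowest levels, these medians were −0.08, −0.25, −0.04, −0.13 and −0.20. Without SAP replicate 3 the spindle, cyclin and cytokinesis medians were −0.82, −0.95 and −0.85. The size of these medians therefore depended on which SAP library was left out. The groups did not overlap, with lower values in SAP, for 3, 5, 0, 2 and 2 genes of these lists, 12 of 83 in all, against 7.43% of all genes.

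Individual mitotic genes had adjusted p-values far from the threshold. Tacc3, a spindle protein that binds Ckap5, stood at 125, 166 and 124 CPM in CON and at 85.4, 42.4 and 87.4 in SAP. The groups did not overlap for it (log2 fold change −0.93 ± 0.29, edgeR adjusted p = 0.651). Plk1 was at 238, 393 and 166 CPM in CON and at 186, 105 and 209 in SAP, with overlap (−0.66 ± 0.36, adjusted p = 0.816). Ect2 was at 310, 430 and 400 CPM in CON and at 326, 173 and 321 in SAP, also with overlap (−0.47 ± 0.28, adjusted p = 0.827). Ska2, of the outer kinetochore, ranged from 21.5 to 24.4 CPM over the CON libraries and from 5.66 to 15.1 CPM over the SAP libraries (−1.10 ± 0.41, adjusted p = 0.696). In SAP replicates 1 and 2, 3 counts make 14.6 and 8.22 unscaled CPM, so the Ska2 values there rest on few UMIs. Apart from the low values of SAP replicate 2, the levels of Plk1 and Ect2 in SAP were within the range of CON.

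The S phase list had a median of −0.23, with 51 of 64 genes below 0, and a median of −0.03 without SAP replicate 2. Tyms, the thymidylate synthase, stood at 49.8, 53.7 and 43.7 CPM in CON and at 25.1, 22.6 and 20.8 in SAP. Its SAP values lay close together (−1.15 ± 0.30, edgeR adjusted p = 0.471), though 3 counts make 14.6 and 8.22 unscaled CPM in SAP replicates 1 and 2. Cdc6 stood at 18.4 and 25.5 CPM in CON replicates 1 and 2, below that in CON replicate 3, and at 50.2, 53.8 and 18.2 CPM in SAP (0.88 ± 0.45, adjusted p = 0.800), where SAP replicate 3 lay within the CON range. The cycle transcription factors had a median of −0.09, which ran from −0.38 to 0.09 over the alternatives, and E2f1 had the value 0.50 ± 0.61.

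Genes of arrest had a median above 0. Of 19 tested p53 targets and inhibitors 16 had a log2 fold change above 0 (median 0.49). EdgeR called none after the filter on low counts and 1, Cdkn2b, without it. The groups did not overlap for 2 as higher and 1 as lower, against 5.30% and 7.43% of all genes. Gadd45a, a growth arrest gene induced by DNA damage, was at 7.41, 9.14 and 8.38 CPM in CON and at 15.1 to 19.5 in SAP, with no overlap (1.10 ± 0.40, edgeR adjusted p = 0.696). Its lowest SAP value lies near what 3 counts make in SAP replicate 1 (14.6 unscaled CPM). Cdkn2b was at 30.0, 60.9 and 46.7 CPM in CON and at 75.3, 221 and 56.0 in SAP, where SAP replicate 2 was far above the rest (1.33 ± 0.52, adjusted p = 0.741). Sfn, the 14-3-3 protein sigma of the G2 checkpoint, was at 7.66 to 14.5 CPM in CON and at 5.02, 50.9 and 23.3 in SAP. The 5.02 of SAP replicate 1 lies under the 14.6 unscaled CPM that 3 counts make there. It therefore does not place that library below CON.

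Crypt genes differed among themselves. Olfm4 was at 534, 256 and 414 CPM in CON and at 517, 303 and 337 in SAP (−0.07 ± 0.31), and Rnf43, a ligase that limits Wnt receptors, had −0.03 ± 0.28. Ephb2, a guidance receptor of crypt cells, stood at 525, 429 and 630 CPM in CON and at 301, 190 and 340 in SAP. Prom1, a membrane protein of progenitors, was at 274, 197 and 250 CPM against 136, 48.1 and 148. Neither gene overlapped between the groups, with −0.93 ± 0.27 (edgeR adjusted p = 0.571) and −1.10 ± 0.36 (adjusted p = 0.661). Myb and Hmga2, transcription factors of crypt progenitors, are named outside the rule. Myb was at 377, 481 and 413 CPM in CON against 296, 207 and 309 in SAP (edgeR adjusted p = 0.696). Hmga2 was at 313, 337 and 373 CPM in CON against 226, 130 and 285 in SAP (edgeR adjusted p = 0.773). The groups did not overlap for either of these genes. In the whole crypt list 18 of 22 genes were below 0, with a median of −0.15. The groups did not overlap for 6 of the 22 as lower and 0 as higher, against 7.43% and 5.30% of all genes.

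Absorptive genes mostly had values above 0, without a call in the edgeR fit. Of 19 tested 18 had a log2 fold change above 0 (median 0.94), and 6 did not overlap between groups, against 5.30% of all genes. Si, the sucrase-isomaltase of the brush border, was at 29.8, 24.8 and 90.8 CPM in CON and at 151, 345 and 238 in SAP (2.36 ± 0.55, adjusted p = 0.471). Apob was at 93.5, 38.1 and 164 CPM in CON and at 417, 603 and 167 in SAP, where SAP replicate 3 exceeded the highest CON value by a small margin (1.99 ± 0.63, adjusted p = 0.687). In these libraries enterocyte-rule nuclei also differ in number, from 321 to 2304 in CON and from 993 to 4117 in SAP, and the part of free enterocyte RNA in these values was not tested. DESeq2 and the fit without CON replicate 3 called Si.

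Genes of antigen presentation were counted by class. Of 9 tested MHC class II genes 9 had a log2 fold change above 0 (median 0.84) and 2 did not overlap between the groups, against 5.30% of all genes as higher, and none was called by edgeR. RT1-Db1, a class II beta chain, was at 98.1, 46.1 and 76.9 CPM in CON and at 236, 368 and 131 in SAP (1.70 ± 0.41, adjusted p = 0.459). Cd74, the invariant chain, was at 824, 302 and 417 CPM in CON and at 1060, 1282 and 593 in SAP, with overlap (0.92 ± 0.41, adjusted p = 0.777). Among 16 MHC class I genes 10 were above 0 (median 0.05, from −0.11 to 0.33 over the alternatives) and 3 did not overlap, RT1-CE5 among them with 143 to 209 CPM in CON and 338 to 1395 in SAP (2.29 ± 0.47, adjusted p = 0.346). DESeq2 called 2 of the 9 class II genes and 2 of the 16 listed class I genes. Class II genes are highly expressed in B cells, whose gene Ebf1 was highest in SAP replicate 3 as given above. The class II list summed to 1145, 698 and 931 unscaled CPM in CON and to 1970, 2458 and 1378 in SAP. Among the SAP libraries it was thus lowest in replicate 3. The part of B cell transcripts in these values was not tested.

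Genes encoded in mitochondria had log2 fold changes above 0 in 13 of 13 cases (median 1.55), 4 of them without overlap, against 5.30% of all genes as higher, and edgeR without the block called none. DESeq2 with the replicate block, added after the data were seen, called 10 of the 13. The mitochondrial share of the nuclei given above was higher in SAP on average. COX1 was at 1803, 326 and 639 CPM in CON and at 3329, 3467 and 1338 in SAP (1.55 ± 0.66, edgeR adjusted p = 0.777). ND1 was called with the replicate block at 1.77 (adjusted p = 0.0423) and not without it (1.61 ± 0.76, adjusted p = 0.784). These transcripts are not made in the nucleus, and their part in the other gene results was not tested.

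Of the other lists, secretory genes had a median of −0.28 (9 of 20 above 0, from −0.68 to 0.47 over the alternatives) and the 11 tested antimicrobial genes one of −0.82 (from −1.24 to 0.41). Itln1, an intelectin that binds microbial sugars, was at 117, 47.6 and 292 CPM in CON and at 5127, 3348 and 574 in SAP (4.30 ± 0.97, edgeR adjusted p = 0.471). It is a product of goblet and Paneth cells. Defa24 was at 1245 to 53514 CPM in CON and 3684 to 19052 in SAP, a spread too wide for any comparison (−0.82 ± 1.31). Immune genes had a median of 0.31 (10 of 13 above 0, from −0.01 to 1.01 over the alternatives) and stromal genes one of 0.44 (7 of 8, from −0.50 to 1.94), and the immune list summed to 489, 529 and 517 CPM in CON and to 941, 365 and 1086 CPM in SAP. Ptprc, the CD45 gene of leukocytes, was at 50.6 to 53.5 unscaled CPM in CON and at 97.5, 27.4 and 93.7 in SAP, and Col3a1, a fibroblast collagen, was at 2.93 to 14.5 in all libraries. Epithelial genes had a median of −0.11 (from −0.27 to 0.23) and genes of Wnt, Notch and growth factor signalling one of 0.10 (from −0.05 to 0.18). Among the 16 genes that the study names, a list chosen on these samples, it was −0.04 (from −0.22 to 0.32).

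**Figure D4:**
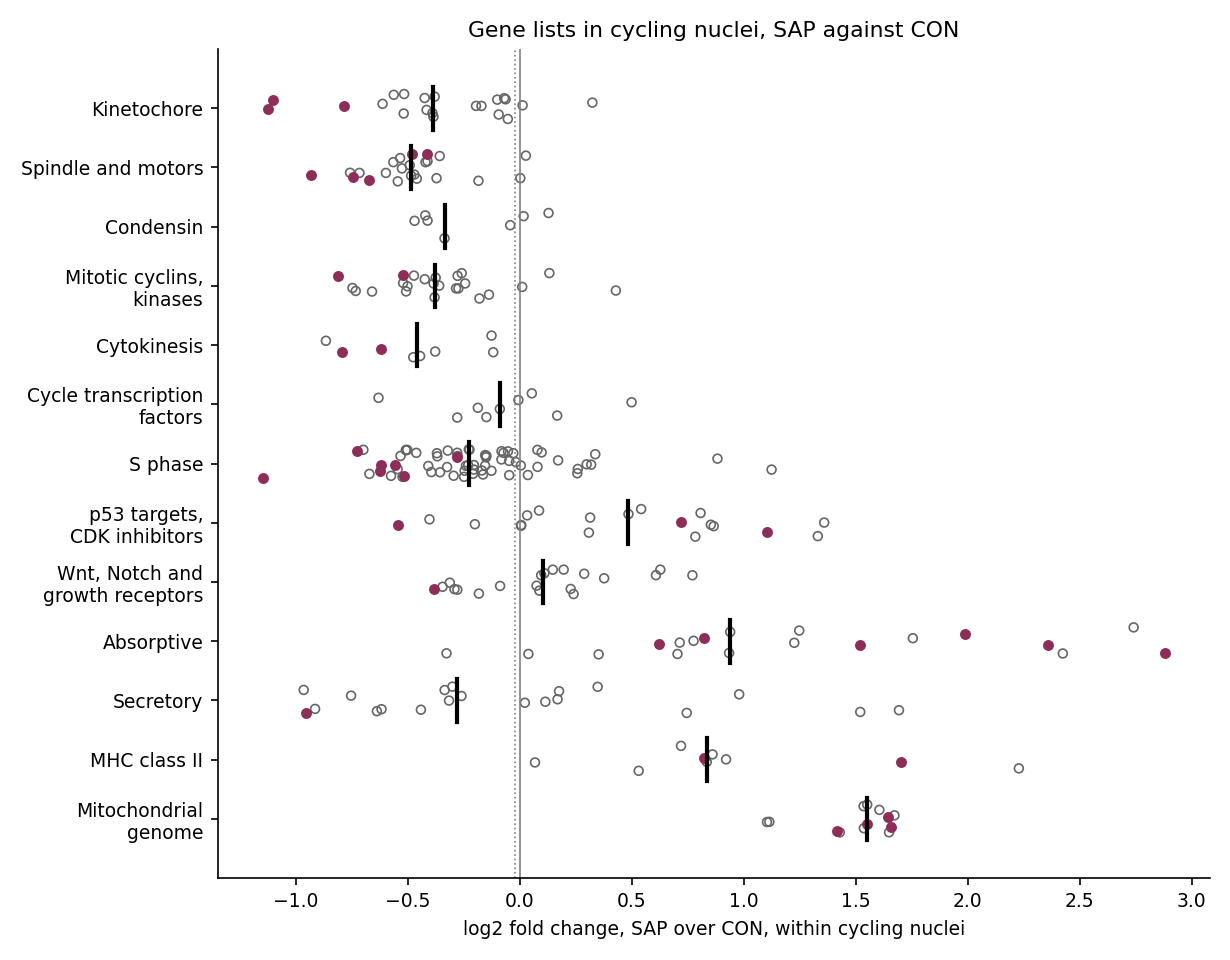
Log2 fold change of SAP over CON within cycling nuclei for each gene, by list, with the list median as a black bar and the median of all genes as a dotted line at −0.02. Filled points are genes whose groups do not overlap. None of the genes plotted was called in the edgeR fit on all 6 libraries with the filter on low counts and without the replicate block. The 5 mitotic lists have medians from −0.48 to −0.34 and the absorptive list one of 0.94.

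Beyond the lists, the genes of smallest p without overlap were followed in each library, where edgeR without the block called St8sia6 alone. DESeq2 called all 12 of them, with adjusted p-values up to 0.023 (Plch2). Csgalnact1, which starts the chains of chondroitin sulfate, was at 28.1, 41.1 and 43.7 CPM in CON and at 121, 144 and 152 in SAP. Its values lay close together within each group (1.91 ± 0.26, edgeR adjusted p = 0.120, and 1.89 at adjusted p = 0.0318 with the replicate block). Slc22a3, an organic cation carrier, was at 4.37 to 4.59 CPM in CON and at 20.1, 25.5 and 24.5 in SAP (2.38 ± 0.41, adjusted p = 0.205). Rbp2, a retinol binding protein of absorptive cells, was at 16.8 to 31.8 CPM in CON and at 84.3 to 90.4 in SAP (1.70 ± 0.31, adjusted p = 0.221). Slpi, a secreted protease inhibitor, was at 0.381 to 0.729 CPM in CON and at 40.2, 5.66 and 14.5 in SAP (4.68 ± 0.81, adjusted p = 0.205). In SAP replicate 2 its value lies under the 8.22 unscaled CPM that 3 counts make there. The long noncoding RNAs LOC120098829 and LOC120094738 had 3.16 ± 0.45 (adjusted p = 0.123, and 0.0423 with the block) and 2.34 ± 0.40 (adjusted p = 0.205).

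Among the lower genes Celsr1, an atypical cadherin of planar cell polarity, was at 90.9, 112 and 104 CPM in CON and at 25.1, 11.3 and 32.1 in SAP (−2.03 ± 0.34, edgeR adjusted p = 0.205). Slc5a8, a monocarboxylate carrier, was at 138, 146 and 96.6 CPM in CON and at 40.2, 39.6 and 45.9 in SAP (−1.57 ± 0.27, adjusted p = 0.205). For these the lowest CON library was more than 2-fold above the highest SAP library. Muc3l1, a gene named as mucin-like, was at 196, 251 and 129 CPM in CON and at 60.3, 67.9 and 45.3 in SAP (−1.78 ± 0.31, adjusted p = 0.205, and 0.0328 with the block). Etfbkmt, a mitochondrial lysine methyltransferase, was at 293 to 340 CPM in CON and at 79.2 to 141 in SAP (−1.44 ± 0.26, adjusted p = 0.221, and 0.0423 with the block). Plch2, a phospholipase C, was at 292 to 349 CPM in CON and at 127 to 177 in SAP (−1.09 ± 0.22, adjusted p = 0.346). The remaining genes called with the block, named for that call, were, beside ND1, Cbr1l2 and LOC681177 as lower and Cesl1 and Reg4 as higher, with log2 fold changes of −2.57, −3.20, 3.14 and 2.59.

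**Figure D5:**
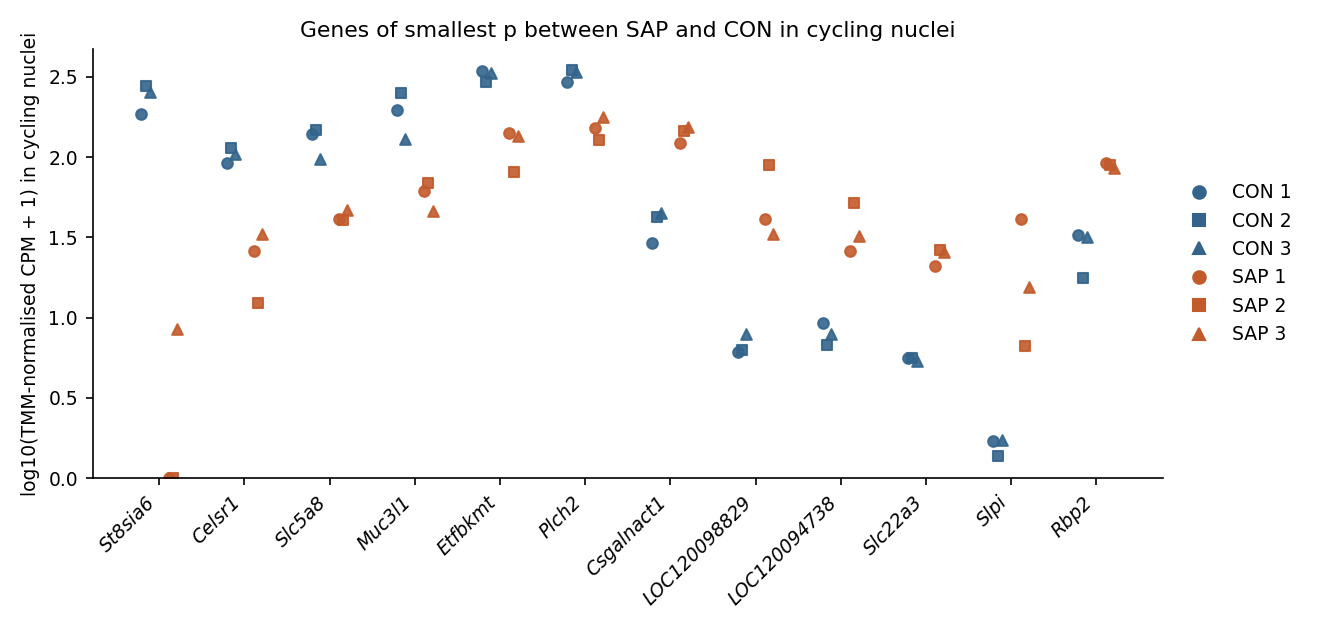
Level of St8sia6 and of the genes of smallest p in the cycling nuclei of each library, as log10 of TMM-normalised CPM plus 1 (CON blue, SAP orange, with the point shape giving the replicate number). The genes were chosen among those whose groups do not overlap, so the groups are apart for each by choice. St8sia6 is at 0 in SAP replicates 1 and 2.

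The last question was whether the difference between SAP and CON was larger or smaller in cycling nuclei than in the other crypt nuclei. The class by group term was called for 0 of 12702 genes by edgeR (0.00%), with 530 at an unadjusted p under 0.05 (4.17%), and for 0 by DESeq2. The smallest adjusted p was that of Csgalnact1 (1.05 ± 0.20 on the log2 scale, edgeR adjusted p = 0.283), whose log2 fold change was 1.91 ± 0.26 in cycling and 0.76 ± 0.34 in the other crypt nuclei. For St8sia6 the term was −0.18 ± 0.55. Neither Celsr1 (−0.70 ± 0.34) nor Slc5a8 (0.00 ± 0.18) passed. In the kinetochore, spindle, condensin, cyclin and cytokinesis lists the term had a median of 0.41, 0.30, 0.12, 0.32 and 0.53, above the −0.02 over all genes, with none called. The rule holds the 9 markers above a fixed number of genes in each cycling nucleus and at 0 in the other nuclei, which bears on this difference.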

How the data were processed

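Single-nucleus RNA of the ileum was measured in 6 libraries, 1 per rat (3 CON, 3 SAP, all labelled as 1 batch). The deposited files hold raw UMI counts for 28282 gene symbols, which the authors made with dnbc4tools and left unnormalized. The submitters' processing notes name Seurat 4.3.0 and mRatBN7.2. Whether strand was used in counting is not given in the sources used here, so antisense neighbours were not separated. Doublets were not called; nuclei above the 95th percentile of UMIs were left out as an alternative. The members and the gene lists were chosen with earlier results of these data known.

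Counts were summed over cycling nuclei per library and compared with edgeR 4.0.16 in R 4.3.3 (filterByExpr, TMM, robust quasi-likelihood fit, Benjamini-Hochberg adjustment). Calls needed an adjusted p below 0.05 and a log2 fold change no smaller than 0.5 in size. DESeq2 1.42.0 was an alternative. Shares were compared by exact permutation in Python 3.11.15 (scipy 1.17.1). Thinning drew 1200 UMIs per nucleus without replacement. The scripts were tested on simulated data. Named were, per list, the 4 genes of highest level and the 3 of largest fold change, called genes, the 6 genes per direction of smallest p without overlap, and the 10 of largest difference from crypt nuclei per direction; genes outside this are marked as such. Promoters came from RefSeq (GRCr8). No coordinates were converted between builds.

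CON and SAP libraries of the same number deviated together from their group means, with correlations over genes of 0.338, 0.127 and 0.292 in cycling nuclei and from −0.301 to 0.0456 for other pairs, so the replicate block was fitted as an alternative. Where this pairing comes from is not stated. All passing nuclei gave 0.692, 0.197 and 0.188, and from −0.497 to 0.149 for other pairs. Deviations from a group mean cancel within the group, which bears on the values of other pairs. Precision is set by the number of rats and, in SAP replicates 1 and 2, by the number of cycling nuclei.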

Additional observations from a re-analysis of the deposited data

How the results depend on the processing

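The shares of cycling nuclei were lower on average in SAP under each alternative tried. Leaving out 1 library at a time, the difference of SAP from CON ranged from −16.0 to −11.5 points of all passing nuclei, from −7.96 to −5.32 after thinning and from −9.62 to −7.18 of crypt nuclei. Over all alternatives (other marker numbers, 0 excluded genes, at most 1% mitochondrial UMIs, no nuclei above the 95th percentile, another denominator) it ranged from −21.7 to −7.17, from −15.3 to −2.40 and from −16.2 to −3.23 points. With the replicate block it was −13.1, −6.59 and −8.48 points, and 3 pairs cannot give an exact p below 0.25.

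Genes called between SAP and CON in cycling nuclei numbered 1, and 53 with DESeq2, 160 without a filter on low counts, 3 after thinning, 10 with the replicate block, 0 with the depth class as a covariate and 74 with DESeq2 and the block, the last chosen after seeing the data. Leaving out 1 library gave 0 to 3. It was 0 without SAP replicate 1, 3 without CON replicate 3 and 2 without SAP replicate 3. The cause of these changes was not tested. Genes called between cycling and other crypt nuclei numbered 1463 to 2267 over the alternatives, the lowest being the fit without CON replicate 3. The class by group term, called for 0 genes, was called for 2 without a filter, 2 with at least 4 markers, 2 with 0 excluded genes, 1 after thinning, 1 without nuclei above the 95th percentile and 0 to 2 when 1 library was left out (2 without CON replicate 3), and the block changed no call of it. Of the 12 genes of smallest p, 155 of 195 refits kept the side of the threshold and 0 changed sign. These genes were chosen among those whose groups did not overlap, so the lack of sign changes was largely set by that choice. The sums of SAP replicates 1 and 2 rest on 93 and 82 nuclei.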

Other observations

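Nuclei with 3 or more of the 9 markers that the excluded genes removed made up 4.72%, 1.47% and 3.47% of passing nuclei in the CON replicates and 0.220%, 0.653% and 6.85% in the SAP replicates. In SAP replicate 3 these 541 nuclei held UMIs of Ptprc in 84.3%, of Pax5, a B cell factor, in 57.5% and of Bank1, a B cell adaptor, in 46.2%. In CON replicate 1 the 436 such nuclei held Ptprc in 89.9%, Pax5 in 3.44% and Bank1 in 8.72%, and Skap1, a T cell adaptor, in 84.6%. Their median depth was 2808 UMIs in SAP replicate 3 and 5846 UMIs in CON replicate 1, and Epcam stood at 782 and 762 CPM in them, so that epithelial transcripts were present too. These nuclei entered no sum of expression but are part of the passing nuclei by which the shares were divided. With nuclei of 2 or more excluded genes left out of the divisor, the share of cycling nuclei in SAP replicate 3 was 11.04% in place of 5.75%, and in CON replicate 3 14.1% in place of 10.6%.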
